A study of Mus musculus with 12 samples.

Results

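Brachyury (T) and 7 further transcription factor genes of the primitive streak and the posterior embryo (Cdx1, Cdx2, Cdx4, Mixl1, Eomes, Evx1 and Gsc) were described in V6.5 mouse embryonic stem cells depleted of Tet1 or Tet2. They were chosen by name, with earlier results of these data known, as 8 of the 36521 genes in the gene tables. All 8 had reads in every group. The study had 3 groups of 4 libraries of poly(A)-selected RNA, sequenced on the SOLiD platform. Parental V6.5 cells received no hairpin, Tet1kd cells stably carried pSUPER-puro-Tet1shRNA, and Tet2kd cells stably carried pSUPER-puro-Tet2shRNA. Cells of every group were grown in serum with LIF. The knockdown cells had been electroporated, selected with puromycin on SNL76/7-4 feeder cells and picked as single clones. The sources used here do not give the number of clones behind the 4 libraries of a knockdown, and no group carried a control hairpin. Vector, selection and clone therefore cannot be told apart from the knockdown, and a p-value measures only the spread between these libraries.

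The primitive streak is the furrow of the gastrulating embryo through which epiblast cells leave to form mesoderm and endoderm. Wnt, Nodal and BMP signals from the posterior epiblast switch on T and Eomes, T-box factors that bind related DNA motifs, together with the homeobox factors Mixl1, Evx1 and Gsc. The caudal-type factors Cdx1, Cdx2 and Cdx4 then pattern the posterior body axis through the Hox genes. Embryonic stem cells in serum with LIF transcribe several of these genes at a low level, in part of the cells. In bulk RNA fewer expressing cells and less RNA per cell cannot be told apart. Tet1 and Tet2 encode dioxygenases that oxidize 5-methylcytosine to 5-hydroxymethylcytosine, a change made mainly at CpG sites.

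The sequences just upstream of T, Eomes, Cdx2 and Evx1, members past the threshold in Tet1kd cells, are shown for their CpG sites, the positions at which TET enzymes act. Each is the 250 bases before the start of the gene, read 5′ to 3′ on its own strand with the CpG sites in capitals (RefSeq, build GRCm38.p6). T lies on the plus strand (chr17:8434173-8434422), Eomes on the plus strand (chr9:118477939-118478188), Cdx2 on the minus strand (chr5:147307250-147307499) and Evx1 on the plus strand (chr6:52313248-52313497).
T: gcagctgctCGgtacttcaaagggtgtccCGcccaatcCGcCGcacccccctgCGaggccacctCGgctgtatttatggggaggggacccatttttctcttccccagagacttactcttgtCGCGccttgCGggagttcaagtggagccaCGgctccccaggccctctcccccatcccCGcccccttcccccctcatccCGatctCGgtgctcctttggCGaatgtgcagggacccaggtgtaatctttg
Eomes: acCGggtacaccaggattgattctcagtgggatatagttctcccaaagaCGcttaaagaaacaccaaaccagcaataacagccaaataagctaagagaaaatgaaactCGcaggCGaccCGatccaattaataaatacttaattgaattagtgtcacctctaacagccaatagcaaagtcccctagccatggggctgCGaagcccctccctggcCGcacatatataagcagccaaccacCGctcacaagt
Cdx2: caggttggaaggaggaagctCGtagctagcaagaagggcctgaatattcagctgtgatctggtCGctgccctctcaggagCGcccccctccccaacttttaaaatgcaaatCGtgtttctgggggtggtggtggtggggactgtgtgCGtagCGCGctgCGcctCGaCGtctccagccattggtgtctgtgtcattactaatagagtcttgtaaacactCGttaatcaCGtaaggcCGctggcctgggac
Evx1: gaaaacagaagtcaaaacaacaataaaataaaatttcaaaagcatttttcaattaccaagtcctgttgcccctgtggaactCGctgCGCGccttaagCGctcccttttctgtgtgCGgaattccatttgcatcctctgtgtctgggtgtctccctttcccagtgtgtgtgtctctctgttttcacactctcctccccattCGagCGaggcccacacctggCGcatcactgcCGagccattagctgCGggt
These windows held 14 (T), 8 (Eomes), 13 (Cdx2) and 10 (Evx1) CpG sites, against a median of 6 over 32851 windows of the same length. Fewer sites were found in 70.6% (T), 57.0% (Eomes), 68.5% (Cdx2) and 62.2% (Evx1) of all windows. The window of Cdx1, which also passed the threshold in Tet1kd cells, was not analysed. The windows of Cdx4 and Gsc held 5 and 22 CpG sites. The letters CAAAG, the core of the motif of the Wnt effectors of the TCF and LEF family, occurred on either strand 3 times for T, 2 times for Eomes and 1 time each for Cdx4 and Gsc, with no match for Cdx2 and Evx1. They occurred in 48.6% of all windows. The T-box motif GGTGTGA matched none of the 6 members' windows and 3.33% of all windows. The caudal motif TTTATNG matched once each for T and Evx1, and in 9.81% of all windows. These matches describe letters only, and no binding or methylation was measured.

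Values below are normalized read counts, that is reads divided by a size factor for the depth of the library, on the scale of the authors' Tet1kd table. Reads of single libraries were recovered from the deposited group means, and the libraries are lettered a to d from the deepest to the shallowest. By estimate the parental libraries held 14.7 to 31.3 M reads, the Tet1kd libraries 15.9 to 39.7 M and the Tet2kd libraries 14.4 to 31.1 M. Tet1kd cells had 25.2% of the parental Tet1 mean and Tet2kd cells 50.9% of the parental Tet2 mean in the authors' deposited tables. The authors deposited 2 tests, and a gene counts as changed where the adjusted p of their first was at most 0.05. Of 8 markers of embryonic stem cells 3 rose and 2 fell in Tet1kd cells (median 0.14, with Lin28a at -0.65 and Utf1 at 0.74), and 1 rose and 0 fell in Tet2kd cells (median -0.02), as log2 fold changes in the authors' deposited tables.

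In Tet1kd cells 5 of the 8 members changed by the authors' deposited table: T, Cdx1, Cdx2 and Evx1 fell and Eomes rose. There 30.4% of all 23120 genes tested changed (15.2% rose and 15.3% fell), and 44.8% of genes with a mean of at least 10. In Tet2kd cells T rose, while Eomes and Cdx1 fell, so 3 of 8 changed by the authors' deposited table. There 7.14% of 22949 genes changed (3.85% rose and 3.29% fell), and 10.7% of those with a mean of at least 10. The members were chosen with earlier results known, so their counts cannot be read as an excess over these shares. The 3 members that passed in both comparisons did not share 1 pattern. T fell in Tet1kd and rose in Tet2kd cells, Eomes rose in Tet1kd and fell in Tet2kd cells, and Cdx1 fell in both. Both comparisons use the same 4 parental libraries, so they are not independent of each other. The groups of libraries did not overlap between Tet1kd and parental cells for 6 members (4 lower and 2 higher), where 45.9% of genes with a mean of at least 10 did not overlap. Between Tet2kd and parental cells 3 members did not overlap (1 higher and 2 lower), against 20.8% of those genes. Between the knockdowns 7 members did not overlap (1 higher and 6 lower in Tet1kd cells), against 42.6%. Gsc, 1 of these 7, has a mean under 10 and so lies outside the genes behind that share.

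**Figure D1:**
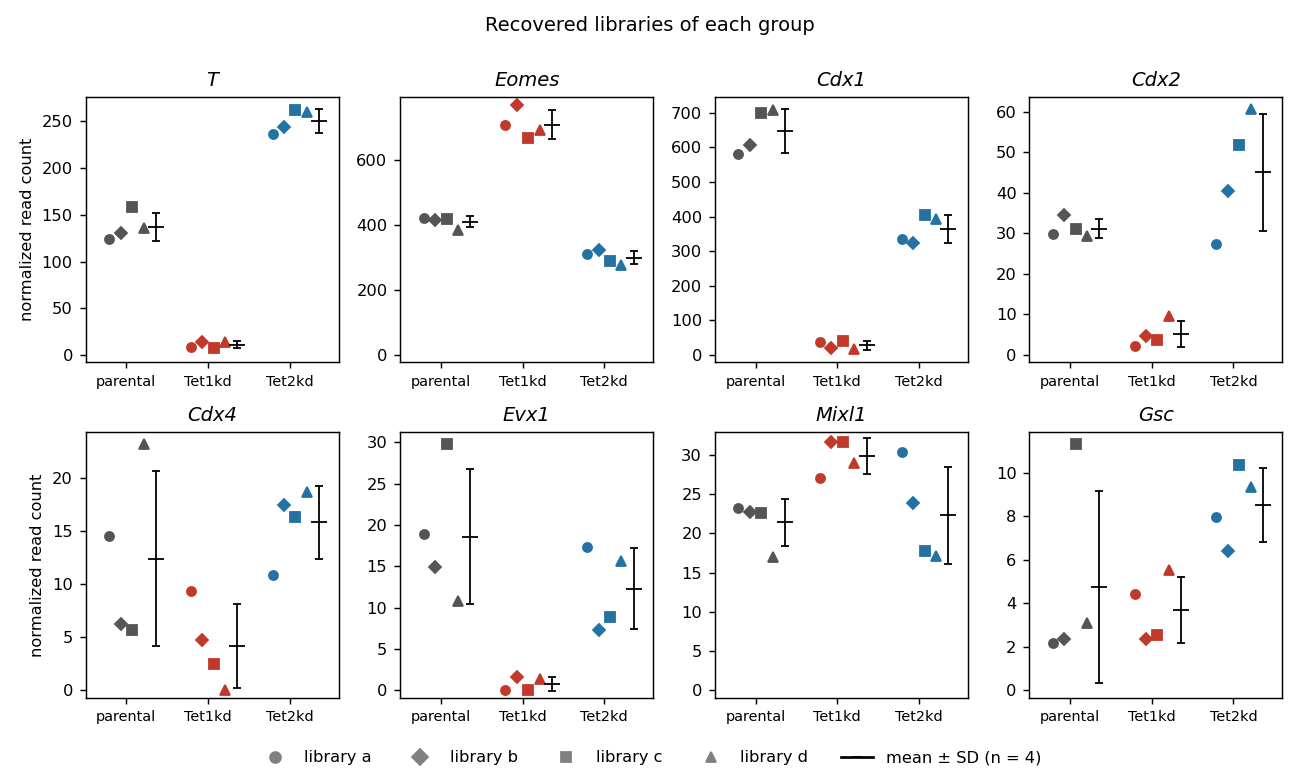
Normalized read counts (vertical axis, linear, with a range of its own for each gene) of the 8 members in each of the 4 libraries of the parental, Tet1kd and Tet2kd groups, with points shaped by library and crossed bars for the mean ± SD. The Tet1kd points of T lie between 7.60 and 14.3 and those of Cdx1 between 16.6 and 40.5, below every parental point, while the Tet1kd points of Eomes lie between 666 and 770, above every parental point.

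T (ENSMUSG00000062327, chromosome 17) encodes the founding T-box factor, which early mesoderm and the notochord require. Its normalized counts in libraries a to d were 124, 131, 159 and 136 in parental cells. They were 8.83, 14.3, 7.60 and 13.8 in Tet1kd cells and 236, 244, 262 and 260 in Tet2kd cells. The 3 groups did not overlap, and the order was the same in every library: Tet1kd lowest, parental between, Tet2kd highest. The means were 137 ± 15.0, 11.1 ± 3.40 and 251 ± 12.8 (SD, n = 4 each), from 538, 50 and 936 reads in all. By the authors' deposited table Tet1kd cells kept 8.10% of the parental level of T, which is -3.63 as a log2 fold change (adjusted p = 4.79e-39). The log2 fold change in Tet2kd cells was 0.87 by the authors' deposited table (adjusted p = 1.27e-06). T was thus 22.5-fold higher in Tet2kd than in Tet1kd cells, a difference of -4.48 ± 0.19 (SE) in log2 normalized count for Tet1kd minus Tet2kd by limma (adjusted p = 2.25e-11).

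Eomes (ENSMUSG00000032446, chromosome 9), a second T-box gene, acts in definitive endoderm, early mesoderm and trophoblast, and its direction was opposite to that of T in each knockdown. Its normalized counts in libraries a to d were 423, 415, 418 and 386 in parental cells. They were 707, 770, 666 and 691 in Tet1kd cells and 311, 322, 288 and 277 in Tet2kd cells. Again no library of 1 group reached the range of another, here with Tet1kd highest and Tet2kd lowest. The means were 410 ± 16.6, 709 ± 44.4 and 299.6 ± 20.6 (SD, n = 4 each). The authors' deposited tables gave log2 fold changes of 0.79 in Tet1kd (adjusted p = 1.87e-11) and -0.45 in Tet2kd cells (adjusted p = 0.00845). The changes were thus smaller than 2-fold in each comparison with parental cells. The difference between the knockdowns was 1.24 ± 0.08 (SE) in log2 normalized count by limma, with Tet1kd higher (adjusted p = 1.71e-09).

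Cdx1 (ENSMUSG00000024619, chromosome 18), a caudal-type homeobox gene that Wnt and retinoic acid signals induce in the posterior embryo, was nearly lost in Tet1kd cells. Its normalized counts in libraries a to d were 581, 606, 698 and 707 in parental cells and 334, 325, 406 and 394 in Tet2kd cells. In Tet1kd cells they were 38.6, 19.0, 40.5 and 16.6. All Tet1kd libraries lay below all Tet2kd libraries, and those below all parental libraries. Within Tet1kd cells a and c were higher than b and d for Cdx1, while b and d were higher than a and c for T, and each of these pairs holds 1 deeper and 1 shallower library. The means were 648 ± 63.9, 28.7 ± 12.6 and 365 ± 41.3 (SD, n = 4 each) in parental, Tet1kd and Tet2kd cells. By the authors' deposited table Tet1kd cells kept 4.43% of the parental level (log2 fold change -4.50, adjusted p = 2.77e-125). In Tet2kd cells 56.3% remained in the authors' deposited table (log2 fold change -0.83, adjusted p = 1.29e-10). By limma, which called 16.6% of genes in Tet2kd cells, the change had an adjusted p of 0.0185, which missed the threshold without parental library d (adjusted p = 0.0513) and without Tet2kd library a (adjusted p = 0.0507). The direct difference, Tet1kd minus Tet2kd, was -3.75 ± 0.23 (SE) in log2 normalized count by limma (adjusted p = 7.67e-10).

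Cdx2 (ENSMUSG00000029646, chromosome 5) specifies trophectoderm in the blastocyst and later acts in the posterior axis and the gut. Its normalized counts in libraries a to d were 29.8, 34.5, 31.2 and 29.3 in parental cells. They were 2.21, 4.76, 3.80 and 9.66 in Tet1kd cells, all below the parental range, from 20 reads in all against 126. In Tet2kd cells they were 27.5, 40.4, 51.9 and 60.8, which overlapped the parental range and spread more widely (45.1 ± 14.4, against 31.2 ± 2.32 in parental cells, SD, n = 4 each). The Tet1kd log2 fold change was -2.61 by the authors' deposited table (adjusted p = 6.94e-08). In Tet2kd cells the authors' deposited table gave 0.53, which did not pass the test (adjusted p = 0.641). The 2 shallower Tet2kd libraries were the 2 highest for Cdx2, and with the split into deeper and shallower libraries as a term the Tet2kd change did not pass by limma either (adjusted p = 0.354). The difference between the knockdowns was -3.13 ± 0.38 (SE) in log2 normalized count by limma, with Tet1kd lower (adjusted p = 2.92e-06).

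Cdx4 (ENSMUSG00000031326, X chromosome), the third caudal gene, was low and variable in all groups. Its normalized counts in libraries a to d were 14.5, 6.27, 5.67 and 23.2 in parental cells, 9.38, 4.76, 2.53 and 0 in Tet1kd cells, and 10.9, 17.4, 16.3 and 18.7 in Tet2kd cells. The Tet1kd libraries were all below the Tet2kd libraries, while each knockdown overlapped the parental range. Neither comparison with parental cells passed in the authors' deposited tables (log2 fold change -1.57, adjusted p = 0.418 in Tet1kd cells and 0.35, adjusted p = 0.903 in Tet2kd cells). By limma the Tet1kd change of -1.89 ± 0.75 (SE) passed (adjusted p = 0.0432), where 51.1% of genes did, with a range of 0.0115 to 0.142 as each library was left out. It missed the threshold in 8 of the 12 fits that leave out 1 library (without parental a or d, without Tet1kd c or d, and without any 1 of the Tet2kd libraries, which share the estimate of the spread), and with no filter on the mean (adjusted p = 0.0681 by limma). Tet1kd was lower than Tet2kd by limma, at -2.43 ± 0.75 (SE) in log2 normalized count (adjusted p = 0.0126).

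Evx1 (ENSMUSG00000005503, chromosome 6), a homeobox gene of the posterior streak that lies beside the Hoxa cluster, was close to undetected in Tet1kd cells. Its normalized counts in libraries a to d were 18.9, 14.9, 29.7 and 10.8 in parental cells, from 73 reads. In Tet1kd cells they were 0, 1.59, 0 and 1.38, from 3 reads in all. All Tet1kd libraries were below all others. The reads and size factors put the Tet1kd level at 3.59% of parental, with an exact 95% interval of 0.723% to 10.9% that covers counting error only. By the authors' deposited table the log2 fold change was -4.65 (adjusted p = 7.55e-07). In Tet2kd cells the normalized counts were 17.4, 7.34, 8.90 and 15.6, which overlapped the parental range (log2 fold change -0.60, adjusted p = 0.723 in the authors' deposited table). The knockdowns differed by -3.60 ± 0.64 (SE) in log2 normalized count by limma, with Tet1kd lower (adjusted p = 0.000179). With 5 instead of 0.5 added to each normalized count this difference was -1.56 ± 0.31 (SE).

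Mixl1 (ENSMUSG00000026497, chromosome 1) and Gsc (ENSMUSG00000021095, chromosome 12) encode paired-type homeobox factors of the streak, the first acting in mesoderm and endoderm and the second marking the organizer. Mixl1 had normalized counts of 23.2, 22.7, 22.7 and 17.0 in parental, 27.0, 31.7, 31.7 and 29.0 in Tet1kd and 30.4, 23.9, 17.8 and 17.1 in Tet2kd libraries a to d. Every Tet1kd library was above every parental library, but the change did not pass in the authors' deposited table (log2 fold change 0.48, adjusted p = 0.485) or by limma (adjusted p = 0.133). The log2 fold change in Tet2kd cells was 0.06 by the authors' deposited table (adjusted p = 1). By limma Mixl1 differed between the knockdowns by 0.45 ± 0.26 (SE) in log2 normalized count, which did not pass either (adjusted p = 0.164). Gsc was at 2.18, 2.35, 11.3 and 3.09 in parental, 4.41, 2.38, 2.53 and 5.52 in Tet1kd and 7.96, 6.42, 10.4 and 9.35 in Tet2kd libraries. From 16, 17 and 31 reads in all, neither change in Gsc passed (log2 fold changes -0.35 and 0.85, adjusted p = 1 and 0.603 in the authors' deposited tables). The 4 Tet2kd libraries of Gsc lay above the 4 Tet1kd libraries, but its mean was under 10, and by limma with no filter on the mean the difference of -1.15 ± 0.61 (SE), Tet1kd minus Tet2kd, did not pass (adjusted p = 0.172).

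**Figure D2:**
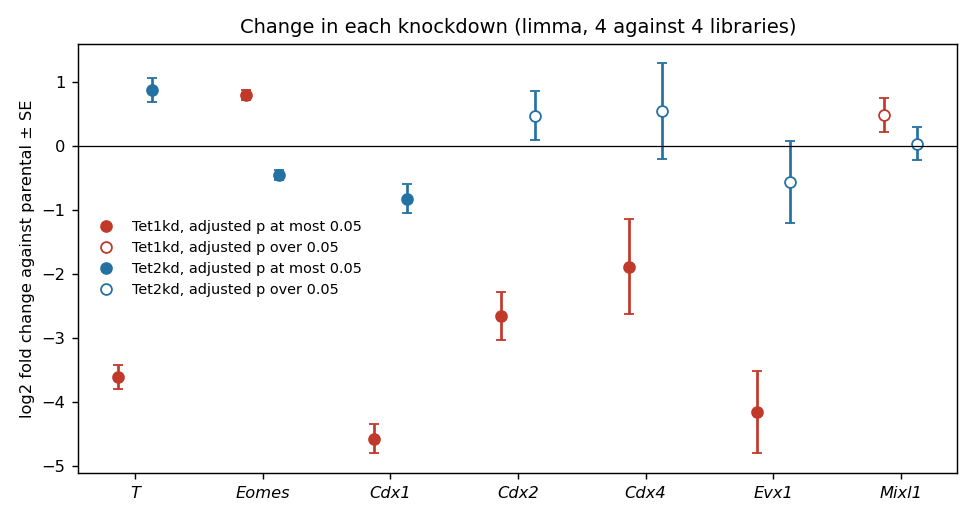
Log2 fold changes of 7 members by limma (points, with bars of 1 SE from 4 libraries per group) for Tet1kd and Tet2kd against parental cells, with open points over an adjusted p of 0.05, and without Gsc, whose mean was under 10. T and Eomes lie on opposite sides of 0 in each knockdown, and the Tet1kd values of T, Cdx1 and Evx1 are the lowest, at -3.61, -4.58 and -4.17. With 5 instead of 0.5 added to each normalized count, the Tet1kd value of Evx1 was -1.99 and that of T -3.16.

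The knockdowns were also compared with each other. By limma 6 of the 7 members tested differed, with T, Cdx1, Cdx2, Cdx4 and Evx1 lower and Eomes higher in Tet1kd than in Tet2kd cells, where 48.4% of 11673 genes differed (25.2% higher and 23.2% lower). Mixl1 was the member tested that did not pass. The 3 caudal genes had the same direction in this comparison, with differences of -3.75 (Cdx1), -3.13 (Cdx2) and -2.43 (Cdx4) in log2 normalized count. With 5 instead of 0.5 added to each normalized count these were -3.53, -2.31 and -1.27 by limma. Sizes for members with few reads thus depend on the value added. The order over the groups differed between them: Cdx1 was highest in parental cells, while Cdx2 and Cdx4 did not separate between parental and Tet2kd cells.

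Use of the members' exons was examined in the authors' exon tables, which divide the genes into bins. Of 44 bins of the 8 members, 29 were tested in Tet1kd and 36 in Tet2kd cells, and 0 passed an adjusted p of 0.05 by DEXSeq in the authors' deposited tables, where 2.56% and 2.45% of all bins did. At an unadjusted p under 0.05 there were 1 of 29 and 5 of 36 such bins in the authors' deposited tables. The share of all bins at that level is not given here, so these counts cannot be set against it. The smallest p in Tet1kd cells belonged to bin 5 of Eomes (adjusted p = 0.153), and in Tet2kd cells to bin 7 of Eomes (adjusted p = 0.0602 in the authors' deposited table), a bin with a mean of 5.90 normalized counts. For T the smallest was bin 8 in Tet2kd cells (adjusted p = 0.213 in the authors' deposited table), with a mean of 1.48 normalized counts. No bin of Evx1 or Gsc was tested in Tet1kd cells.

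The 20 nearest genes with a mean of at least 100 (10 on each side in RefSeq order) were examined for each member. Around Evx1, 17 of 20 neighbours fell and 0 rose in Tet1kd cells by the authors' deposited table, with a median log2 fold change of -0.79. Over all 10996 such genes 24.2% fell and 25.5% rose, with a median of 0.00. The lowest of the neighbours of Evx1 was Nod1, which encodes an innate immune receptor, at -3.47 in the authors' deposited table. In Tet2kd cells 4 of these 20 rose and 0 fell (median 0.08). The log2 fold change of Evx1 itself, -4.65 in the authors' deposited table, lay below all 20 neighbours, and the part of the region in it was not tested.

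Around the other members the neighbours went both ways in Tet1kd cells. Of the 20 neighbours of T, 10 rose and 2 fell in Tet1kd cells (median 0.26), and none reached below -0.29 in the authors' deposited table, where T itself stood at -3.63. Around Cdx1, 4 rose and 6 fell (median -0.05), and around Cdx2, 4 rose and 4 fell (median 0.03). Eomes had 9 rising and 3 falling neighbours (median 0.31). The medians around Mixl1, Cdx4 and Gsc were 0.20, 0.10 and 0.03.

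**Figure D3:**
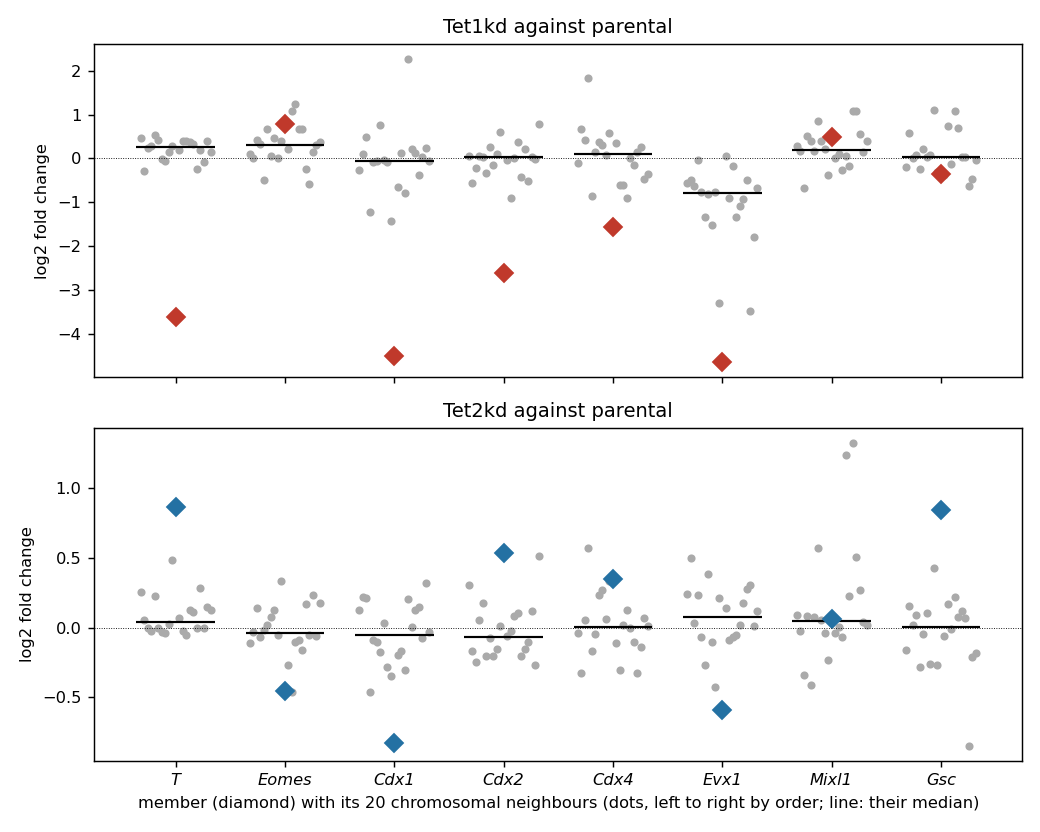
Log2 fold changes (authors' deposited tables, Tet1kd above and Tet2kd below, each against parental) of each of the 8 members (diamonds) and of its 20 nearest genes with a mean of at least 100 (dots, by order along the chromosome, with a line at their median). In Tet1kd cells the neighbours of Evx1 lie mostly below 0 (17 of 20 fell), while those of T lie between -0.29 and 0.53 around a member at -3.63.

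Genes that act above, beside and below the members were taken from lists by role, with the members left out. Counts are by the authors' deposited tables, and the members' lists were chosen with results of these data known. Some genes are in more than 1 list, so the counts of the lists are not independent. Wnt3a, for one, is among the signals, the Wnt target genes and the genes regulated by T. The median log2 fold change of all genes tested was -0.02 in Tet1kd and 0.00 in Tet2kd cells.

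Of 14 other T-box genes tested, 2 rose and 2 fell in Tet1kd cells (median -0.77), and 1 of 15 rose and 0 fell in Tet2kd cells (median 0.07). Tbx3, which embryonic stem cells express, rose (0.66), as did Tbx6 (1.39), a gene of the paraxial mesoderm that acts after T. Tbx20 (-1.92) and Tbr1 (-2.18) fell in Tet1kd cells, and Tbx20 rose in Tet2kd cells (0.68), all as log2 fold changes in the authors' deposited tables.

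Of the 19 Wnt, Nodal, BMP and FGF signals of the streak, 5 rose and 7 fell in Tet1kd cells (median -0.14) and 1 rose and 2 fell in Tet2kd cells (median 0.04). Wnt3a, a Wnt ligand needed for T in the posterior embryo, had normalized counts of 21.8 to 34.5 in parental and 23.2 to 41.5 in Tet2kd libraries, and no read in any Tet1kd library. With a floor of 3 reads in each library, it was at least 9.54-fold lower in Tet1kd than in parental cells. Bmp4 fell in both (-1.08 and -0.61), and Fgf4 (0.82) and the Nodal coreceptor gene Tdgf1 (0.92) rose in Tet1kd cells, while Pcsk6 (-0.41) fell and Fgf5 (1.31) rose in Tet2kd cells in the authors' deposited tables. Wnt3, which acts above T at the start of the streak and was picked after its values were seen, had -1.43 in Tet1kd cells (adjusted p = 0.000622) and 0.41 in Tet2kd cells (adjusted p = 0.640) in the authors' deposited tables. Nodal, picked in the same way, had -0.16 (adjusted p = 0.399) and -0.08 (adjusted p = 0.900) there.

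Of 22 receptors and effectors of these signals, 11 rose and 4 fell in Tet1kd cells (median 0.32), and 5 rose and 1 fell in Tet2kd cells (median 0.03). Lef1, a nuclear effector of Wnt signals, rose in both (1.39 and 0.77), and Smad3, an effector of Nodal, rose in Tet1kd cells (1.18) in the authors' deposited tables. The Wnt receptor gene Fzd2 (-1.35 and 0.50) and Tcf7l1 (-0.67 and 0.44), a Wnt-regulated repressor, fell in Tet1kd and rose in Tet2kd cells in the authors' deposited tables. Of 16 secreted or membrane inhibitors 5 rose and 2 fell in Tet1kd cells (median 0.25), and 5 rose and 1 fell in Tet2kd cells (median 0.21). The Nodal antagonist Lefty1 rose in both (1.09 and 1.33), the Wnt antagonist Sfrp1 rose in Tet1kd cells (1.38), and Lefty2 (1.24) and Cer1 (4.12), also antagonists of Nodal, rose in Tet2kd cells in the authors' deposited tables. Cer1 was at 0 to 2.18 normalized counts in parental, 6.24 to 20.8 in Tet2kd and 0 in all Tet1kd libraries.

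Of the other streak and mesendoderm factors 2 rose and 9 fell of 24 in Tet1kd cells (median -0.44), and 4 rose and 2 fell of 25 in Tet2kd cells (median 0.13). Sp5, a target of Wnt signals, had the directions of T (-3.51 and 0.87), while Nkx1-2, a gene of the posterior progenitors, fell in both (-4.05 and -0.79), the directions of Cdx1, in the authors' deposited tables. Otx2, of the anterior epiblast, rose in both (1.52 and 1.33) and Gata6, of the endoderm, fell in both (-1.81 and -1.54) in the authors' deposited tables. Lhx1 (2.84) rose in Tet2kd cells in the authors' deposited table. Of 13 Wnt target genes 3 rose and 6 fell in Tet1kd cells (median -0.34), among them Myc (-2.61) and Axin2 (-1.34), and 2 rose and 1 fell in Tet2kd cells (median 0.04) in the authors' deposited tables.

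Genes that T and the caudal factors are known to regulate were counted last. Of 17 posterior Hox genes 5 fell and 0 rose in Tet1kd cells (median -1.26), and in Tet2kd cells 0 changed by the authors' first DESeq test (median 0.34). Those that fell included Hoxc13 (-2.36), Hoxb9 (-1.86) and Hoxa7 (-1.66) in the authors' deposited table. Of 14 genes tested from a list of presomitic mesoderm genes regulated by T, 2 rose and 4 fell in Tet1kd cells (median -0.35). The list also holds the cilia gene Foxj1, and Wnt3a, named above, is among the 4 that fell. Fgf8, a growth factor of the streak and tail bud, fell (-3.43) as did Cited1 (-1.35), and Foxj1 (1.12), which drives motile cilia, rose in the authors' deposited table. In Tet2kd cells Dll3 (0.49) rose and 0 of 15 fell by the authors' first DESeq test. Of 18 trophectoderm genes 7 rose and 6 fell in Tet1kd and 2 rose and 2 fell in Tet2kd cells, and of 12 intestinal genes 1 rose and 1 fell in Tet1kd and 1 rose in Tet2kd cells.

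**Figure D4:**
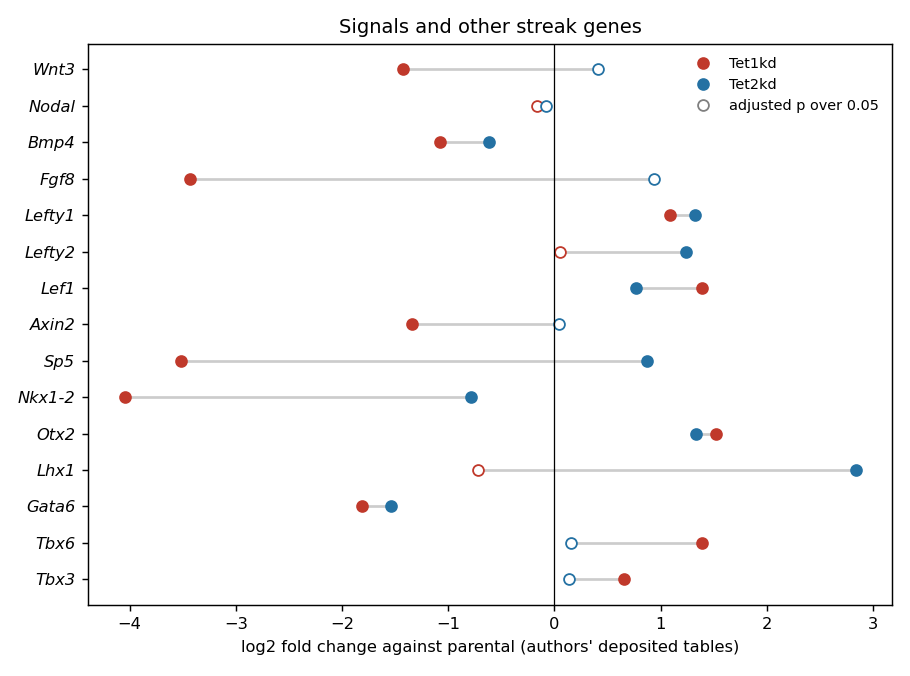
Log2 fold changes in the authors' deposited tables of signals, effectors and streak genes, for Tet1kd and Tet2kd against parental cells, with open points over an adjusted p of 0.05 and a line joining the 2 values of a gene. Sp5 lies at -3.51 in Tet1kd and 0.87 in Tet2kd cells, Nkx1-2 lies below 0 in both, and Lefty1 and Otx2 lie above 0 in both.

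For the members with a parental mean of at least 100, the genes with the nearest pair of deposited log2 fold changes were sought among 10906 genes. The nearest to T was the interferon-induced gene Gbp2, with -3.56 in Tet1kd and 0.70 in Tet2kd cells in the authors' deposited tables (distance 0.18 in log2 units). Gad1, which encodes an enzyme of GABA synthesis, and Nod1 followed at 0.45 and 0.58. For Eomes the nearest were the DNA glycosylase gene Neil3, the periplakin gene Ppl and the parvin gene Parvb, at 0.07, 0.07 and 0.08. For Cdx1 they were Dcn, a proteoglycan gene of fibroblasts, Fgfbp1 and Dmgdh, at 0.79, 0.83 and 1.01, so no other gene lay as near to Cdx1 as Gbp2 to T.

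Markers of other cells that the cultures could hold were summed in each library. In Tet1kd cells, where T, Cdx1, Cdx2 and Evx1 fell, 9 of 10 feeder fibroblast markers fell and 0 rose by the authors' deposited table. In Tet2kd cells, where T rose and Cdx1 fell, 3 of these 10 markers rose and 1 fell. Over the 9 of them with library values, the summed normalized count was 3684 to 3883 in parental, 1853 to 1997 in Tet1kd and 4368 to 4394 in Tet2kd libraries, and none was at 0 in all libraries of a group. Their part in the members' changes was not tested. Of 11 trophectoderm markers tested 5 rose and 3 fell in Tet1kd cells and 1 rose and 1 fell in Tet2kd cells. Over the 10 with library values the sum was 2751 to 2941 in parental, 3065 to 3333 in Tet1kd and 2498 to 2746 in Tet2kd libraries. Of 8 markers of later mesoderm tested 1 rose and 2 fell in Tet1kd cells, and of 9 in Tet2kd cells 0 rose and 1 fell. Their sum was 440 to 530 in parental, 418 to 507 in Tet1kd and 288 to 390 in Tet2kd libraries. Of 3 neuroectoderm markers 2 fell in Tet1kd cells and 0 changed in Tet2kd cells by the authors' first DESeq test. Their sum was 505 to 594 in parental, 81.6 to 124 in Tet1kd and 561 to 660 in Tet2kd libraries. Of 9 primitive endoderm markers tested 2 rose and 3 fell in Tet1kd cells and 0 rose and 3 fell in Tet2kd cells. Over the 8 with library values the sum was 1204 to 1314 in parental, 1626 to 1850 in Tet1kd and 801 to 985 in Tet2kd libraries. Col4a1, 1 of these, had 712 to 833 in parental and 1397 to 1610 in Tet1kd libraries. The part of these other markers in the members' changes was not tested either.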

How the data were processed

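RNA of 12 libraries was sequenced by the authors. Per the submitters' processing notes, TopHat2 (version 2.0.0), SAMtools (version 0.1.18) and DESeq were used, with the builds mm9 and NCBIM37. Per the file headers, the deposited gene tables give group means of normalized signal (reads over a size factor), their ratio (fold), its log2 value, and p-values with adjusted p-values from 2 tests. Per their file headers, the deposited exon tables come from DEXSeq and give the same kinds of value and a dispersion score per bin. In the gene tables the log2 values, where both groups had reads, and the adjusted p-values of the first test equalled those recomputed within 1e-06.

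The tables hold no values of single libraries. A mean of 4 whole read numbers over 4 size factors takes only certain values. The reads were therefore solved for from the deposited means, up to a group mean of 2000. Means above 60 were searched within 60% of the mean. This gave 19018 of 19032 parental, 18710 of 18733 Tet1kd and 18320 of 18656 Tet2kd genes. Of the 19018 parental genes, the Tet1kd table alone answered 19018 and the Tet2kd table alone 18030, each with the same reads as both together. The letters a to d are not tied to the numbered replicates. Tet2kd values were multiplied by 1.09 to the scale of the Tet1kd table.

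The test was the authors' first deposited adjusted p at 0.05. Limma (version 3.58.1, R version 4.3.3) was run on the log2 of recovered values plus 0.5 for 11673 genes whose mean was at least 10 and whose libraries were recovered in all groups, with Benjamini-Hochberg adjustment. It gave the difference between the knockdowns, was tested on simulated data, and its fold changes are on the scale of log2 of the value plus the pseudocount of 0.5. Named genes were the members, Tet1 and Tet2, up to 4 genes of each list past the threshold with the smallest adjusted p, and the 3 nearest genes to each of the 3 members with a parental mean of at least 100. Some genes that this rule selects are not reported here. The members and lists were chosen with earlier results of these data known. In each group a and b are deeper than c and d. Over 7607 genes, deviations from the group mean correlated at 0.327 to 0.542 between libraries of different groups and like depth, and at -0.490 to -0.325 where the depth class differed. This depth class is called the library batch here, from depth alone. Motifs and CpG sites were counted in RefSeq windows of 6 of the 8 members. Member windows on chromosome 18, where Cdx1 lies, were left out of this count.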

Additional observations from a re-analysis of the deposited data

Results flagged for a closer look

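In the direct limma test of Tet1kd against Tet2kd cells 6 members differed, where 48.4% of 11673 genes did. Gsc, whose mean was under 10, was not tested. The differences in log2 normalized count, Tet1kd minus Tet2kd, were -4.48 for T, 1.24 for Eomes, -3.75 for Cdx1, -3.13 for Cdx2, -2.43 for Cdx4 and -3.60 for Evx1.

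A pair of members had 1 parental library far from the other parental libraries. The lowest parental library of Mixl1 was at 17.0 normalized counts, where the gap to the nearest was 0.907 of the whole range. The highest parental library of Gsc was at 11.3 normalized counts, from 8 reads, with a gap of 0.901 of the range. Each gap is past the critical value of Dixon's test for 4 samples, which chance alone passes in about 5% of groups. Each of the 8 members has 3 groups of 4 libraries, so such a gap in some group can come by chance alone.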

How the results depend on the processing

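The count of members changed in Tet1kd cells was 5 and lay between 4 and 6 under every alternative run. Limma added Cdx4, and limma with 1 prior variance added Mixl1 (adjusted p = 0.0393) instead. Adjusting only over genes whose mean was at least 10 removed Evx1, whose mean is lower. In Tet2kd cells 3 members changed, and 0 changed when an at least 2-fold change was also asked for, since T, Eomes and Cdx1 changed by less there. With 1 prior variance limma lost Cdx1 in Tet2kd cells (adjusted p = 0.0585). Limma values of members with few reads depended on the pseudocount. With a pseudocount of 5 the value of Evx1 in Tet1kd cells went from -4.17 to -1.99. Leaving out 1 library at a time gave 5 to 6 members in Tet1kd, 2 to 3 in Tet2kd and 6 to 6 between the knockdowns. With the library batch as a term limma called the same 6, 3 and 6 members as without it, while its calls over all genes went from 51.1% to 59.7% in Tet1kd, from 16.6% to 28.4% in Tet2kd and from 48.4% to 57.4% between the knockdowns. No member that passed changed its direction under any alternative run, while the Tet2kd value of Mixl1, near 0 and not past the threshold, changed sign in 3 settings that leave out 1 library. For exon bins 0 members' bins passed at a stricter threshold of 0.01 or among bins with a mean of at least 10. Within each group the closer libraries of different batches were a with d and b with c in parental and Tet2kd cells. In Tet1kd cells they were a with c and b with d. Deviations of these pairs correlated at -0.457 to -0.217, and those of the other pairs across batches at -0.795 to -0.725. Whether the libraries of a pair share a sample was not tested, so n = 4 counts libraries. Limma on 2 averaged values per group, each the mean of 1 such pair, called 6, 3 and 6 members.

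No paired analysis was possible because the recovered libraries carry no replicate numbers of the labels. Alternatives planned for tables of counts per sample were not run. Depth limits Gsc (16 to 31 reads per group), Cdx4 (25 to 57) and the Tet1kd level of Evx1 (3). The windows upstream of Cdx1 and Mixl1 were not analysed here.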
